A study of Apis mellifera with 36 samples.

Results

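Among the 12365 honeybee genes counted in single embryos, 336 were long non-coding RNA (lncRNA) genes with an exon antisense to an exon of a protein-coding gene. A gene was taken if each of its annotated transcripts was non-coding and if at least 1 of its exon bases lay under an exon of a protein-coding gene on the opposite strand. The table held 381 such genes, and 45 of them were left out because their whole span lay inside an intron of another gene. The partner of each lncRNA was the opposite-strand protein-coding gene that shared most exon bases with it. There were 317 partners, of which 315 were in the table, so that 334 of the 336 lncRNAs could be set beside their partner.

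Natural antisense transcripts are RNAs made from the DNA strand opposite to another gene. Where exons of the pair overlap, the RNAs are complementary there, and well-studied antisense RNAs of flies and mammals act on the transcription, splicing, stability or translation of the sense RNA, while many others have no known role. An insect embryo starts with RNA that its mother placed in the egg, and its own genes take over while this maternal RNA is degraded. Honeybee females (here workers) come from fertilized, diploid eggs and males (drones) from unfertilized, haploid eggs.

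RNA of 36 whole embryos was sequenced, 1 embryo per library. Female embryos from worker cells and male embryos from drone cells were collected 24, 48 and 72 h after egg laying from 2 mated queens of Apis mellifera, with 3 embryos for each queen, sex and time. Each comparison below therefore had 6 embryos against 6, and the queens are also the 2 batches of the labels. Sex, ploidy and the type of comb cell cannot be told apart in this design, and whole embryos show the sum over all cells, so that fewer cells of a type and less RNA per cell cannot be told apart. The time after laying is exact only to the laying window, given as 3 h in the study's methods and as 2 h in the labels.

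Total counts ran from 1195774 to 12808580 per embryo, with a median of 6152929.5, and were lowest in the 6 males of 72 h (1195774 to 2008560). In these males the genes of the table also held only 19.7 to 30.4% of the reads to which the deposited RPKM were scaled, against 61.8 to 69.6% in females of 72 h and 75.3 to 81.4% in all embryos of 24 h. Of 16 embryo patterning genes 13 were in the table, and their summed level was 1989 to 2743 CPM in males of 72 h and 441.5 to 1615 CPM in the other 30 embryos. At 72 h 9 of the 13 had a lower mean in females than in males and 4 a higher one, Kr (283 CPM in females and 28.4 CPM in males), Abd-A (325 and 7.62 CPM), En (18.7 and 0 CPM) and lab (15.4 and 1.78 CPM). Of 9 genes chosen as markers of adult bee tissues 7 were in the table. Their summed level was 1.08 to 2.77 CPM in females and 0.889 to 2.86 CPM in males of 24 h. It was 14.8 to 26.9 CPM in females and 1.49 to 4.84 CPM in males of 48 h. At 72 h it was 17.9 to 27.5 CPM in females and 1.54 to 7.02 CPM in males. Hex70a held the largest part of it in females, with means of 16.8 CPM at 48 h and 15.55 CPM at 72 h. Males had means of 2.07 and 1.02 CPM of Hex70a at these ages. At 72 h Hex70a, Mrjp1, Mrjp2 and Mrjp3 had a higher mean in females, and Vg (0.0788 against 1.82 CPM), Melt and Obp1 in males. The part of these differences in the results below was not tested.

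The lncRNAs were spliced genes without exception, with at least 2 exons each, a median of 3 exons and a median exon length of 996.5 bases (120 to 9774). They shared between 1 and 6656 exon bases with their partner, with a median of 166.5 bases or 20.02% of the lncRNA's exon length. In 112 the shared part was under 10% of the lncRNA, in 161 it was 10 to under 50%, and in 63 it was 50% or more, up to 79.1%. The largest group lay wholly inside the span of the partner (158 genes), 99 met their partner tail to tail, with overlapping 3′ ends, 70 met it head to head, with overlapping 5′ ends, and 9 enclosed their partner. The overlap took in coding bases of the partner in 253 pairs and only non-coding exon, such as untranslated regions, in 83. Of the lncRNAs inside the partner 145 of 158 lay under coding bases, against 60 of 99 in tail-to-tail pairs and 40 of 70 in head-to-head pairs. The lncRNAs were spread over all 16 linkage groups of the Amel_4.5 genome, with 52 on linkage group 1 and 6 on unplaced sequence. A single partner was found for 309 of them, 25 had 2 partners and 2 had 3, while 37 lncRNAs shared a partner with another one.

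**Figure D1:**
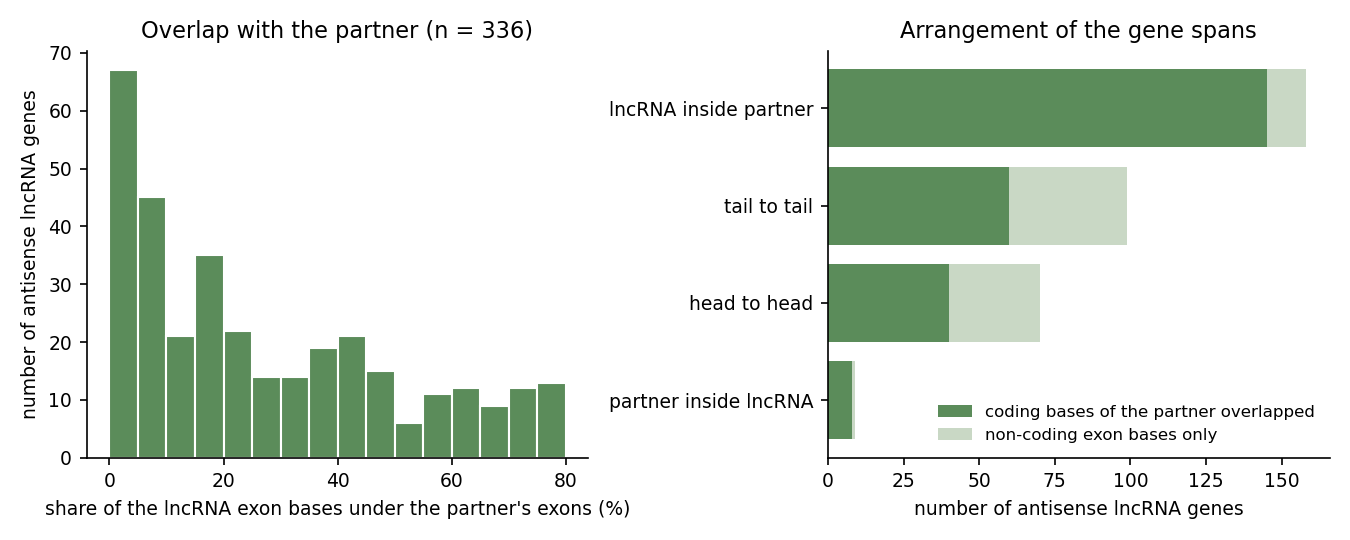
Left, number of antisense lncRNA genes by the share of their exon bases that lay under exons of the partner (%, steps of 5). Right, number of genes by the arrangement of the lncRNA and partner spans, split by whether coding bases of the partner were overlapped. In 112 lncRNAs the share was under 10%, and 158 of the 336 lncRNAs lay inside the span of their partner.

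The longest overlap was that of LOC100576430 with nmo, the gene of the nemo kinase. This lncRNA has 2 exons on linkage group 3, 6060929 to 6070794, minus strand, and 6656 bases, 68.1% of its exons, lay over non-coding exon of nmo. At the other end of the rule, 6 lncRNAs shared a single base with an exon of their partner and 18 shared fewer than 10. The 6 had mean levels of 0.00861 to 24.5 RPKM (median 0.222), and the 45 genes left out in introns had a median of 0.232 RPKM. Of the 317 partners 86 had a gene symbol, and the others are named below by their annotated product.

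The antisense lncRNAs had lower RPKM than the genes they overlapped and higher RPKM than the other lncRNAs of the table. The counting strand is not known, so that their RPKM may hold reads of the partner on shared bases. RPKM, reads scaled to exon length and to library size, allow levels of different genes to be compared. The median of the mean RPKM over 36 embryos was 0.780 for the antisense lncRNAs, against 2.85 for their partners, 0.246 for the 1725 other lncRNA genes and 6.16 for the 10147 protein-coding genes. A mean of 1 RPKM or more was reached by 148 antisense lncRNAs (44.0%), against 68.6% of the partners and 26.5% of the other lncRNAs. In 91 of the 334 pairs the lncRNA had the higher mean RPKM. Counts were concentrated in few genes, as the leading lncRNA held 23.1% of all counts on the 336 genes and the leading 5 held 66.9%. Counts were present in all 36 embryos for 68 lncRNAs, whereas 91 stayed under 10 counts in every embryo and 36 at or under 3 counts.

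The number of antisense lncRNAs above 1 RPKM differed between groups after 24 h. It was 123 to 133 in females and 121 to 132 in males of 24 h. At 48 h it was 135 to 150 in females and 74 to 96 in males, and at 72 h it was 149 to 164 in females and 40 to 57 in males, so that the 6 and 6 embryos did not overlap at 48 or 72 h. The other lncRNA genes of the table were split in the same way, with 392 to 443 above 1 RPKM in females and 251 to 285 in males of 48 h, and 514 to 584 in females and 138 to 191 in males of 72 h, so that this split was not particular to the antisense lncRNAs. RPKM are scaled to all reads of a library, and depth differed too, with 5503556 to 7944906 counts in females and 3222023 to 7572141 in males of 48 h, and 5600680 to 7345814 in females and 1195774 to 2008560 in males of 72 h. As a share of the counts of the table, the 336 genes together made up 0.472 to 0.764% in females and 0.549 to 1.24% in males of 72 h.

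The sources used here do not state whether reads were counted by strand, so that on shared bases reads of the lncRNA and of its partner cannot be told apart. A count for the shared bases was therefore computed from the partner, as its counts in 36 embryos times the share of its exon bases that lay under the lncRNA, as if reads were spread evenly over it. In 75 pairs this number was at least 1000. The lncRNA had fewer counts than that in 54 of the 75 pairs, fewer than 50% of it in 48 and fewer than 10% in 19, and the median ratio was 0.268. The lncRNA over nmo, for instance, had 9099 counts where 103850 would fall on the shared bases of nmo, a ratio of 0.0876, whereas the lncRNA over caudal had 266564 counts against 52978, a ratio of 5.03.

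**Figure D2:**
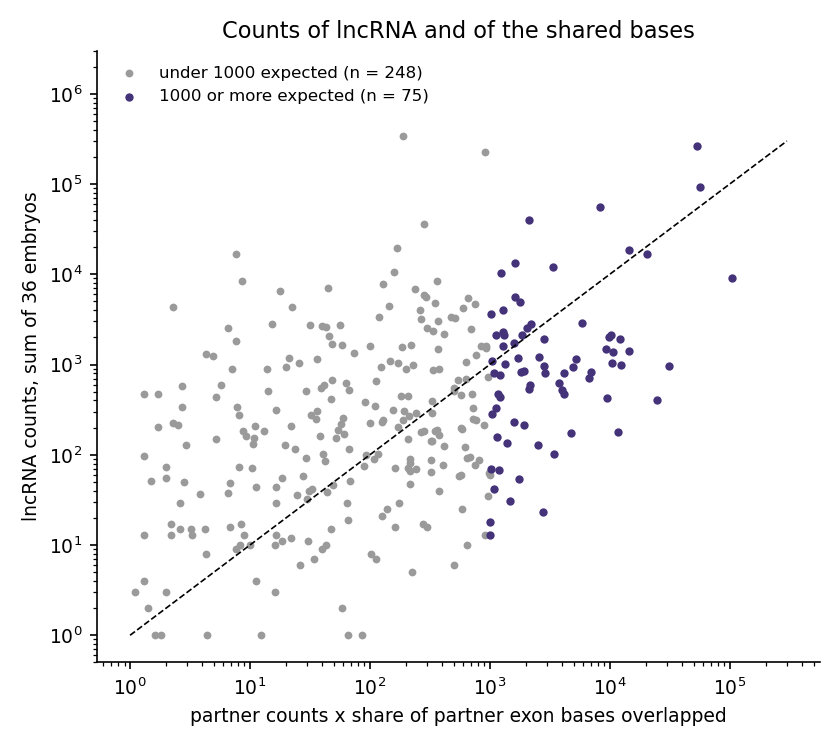
Counts of each antisense lncRNA (sum of 36 embryos, log axis) against the partner's counts times the share of its exon bases overlapped (log axis), for 323 pairs with at least 1 such count. The dashed line marks equal numbers; of the 75 pairs with 1000 or more on the x axis (dark points), 54 lie below it.

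Of the 5 lncRNAs with the highest mean level, the first was LOC102654070 (241 RPKM), which meets T3dh, the type III alcohol dehydrogenase gene, tail to tail. LOC102656426 (198 RPKM) lies head to head with caudal, and LOC102653819 (197 RPKM) lies inside a gene for a tripartite motif-containing protein 71-like product. LOC102656407 (119 RPKM) shares only 4 bases with a lachesin-like gene, and LOC102653813 (59.3 RPKM) lies head to head with the uncharacterized LOC409936. They are described with their partners below.

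The comparison of the sexes asks where female and male embryos of the same age differ. At 24 h no antisense lncRNA was called, and from 48 h on most of those tested were. Calls required a more than 2-fold difference in either direction (a log2 fold change beyond 1 or −1) together with a Benjamini-Hochberg adjusted p under 0.05 in edgeR's quasi-likelihood test, fitted on the 9575 genes that passed a filter on low counts. Of the 336 lncRNAs 194 passed this filter, and the 142 others have no test. An lncRNA with reads in only 1 group can pass the filter only because it is high there, so that the counts below describe the 194 and not all 336.

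In 24 h embryos 0 of 194 lncRNAs were called (28 had an unadjusted p under 0.05), while 0.094% of all genes were called (0.0104% higher and 0.0836% lower in females) and 15.1% had an unadjusted p under 0.05. DESeq2's Wald test called 0 as well. At 48 h, 87 lncRNAs were higher and 61 lower in females, against 33.7% of all genes called higher and 27.6% called lower. The corresponding shares of the lncRNAs were 44.8% and 31.4%. At 72 h, 92 were higher and 54 lower in females (47.4% and 27.8%), against 38.2% and 26.8% of all genes. The median log2 fold change of the tested lncRNAs was 0.73 at 48 h and 1.09 at 72 h, where the median of all genes was 0.18 and 0.41 and that of the 275 tested partners was −0.15 and −0.39. Of the 817 other tested lncRNA genes, 43.7% were higher and 33.9% lower at 48 h (median 0.57) and 40.3% were higher and 35.01% lower at 72 h (median 0.62). Of the partners, 84 were higher and 93 lower in females at 48 h, and 71 were higher and 105 lower at 72 h.

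At both times 68 lncRNAs were called higher and 40 lower in females, 4 were called higher at 48 h and lower at 72 h, and 3 the reverse. At 48 or 72 h 179 of the 194 were called, and 15 at neither. These counts over both times were made for the antisense lncRNAs only, so that no share of all genes stands beside them. They do not show that antisense lncRNAs were called at either time more often than other genes. At 48 and 72 h alone 76.3% and 75.3% of the 194 were called, against 61.2% and 65.04% of all genes. Of the other lncRNA genes 77.6% and 75.3% were called. Of the 148 calls at 48 h 142 could be tested in each queen alone, and 117 of them (82.4%) were called in both queens, against 86.8% of all called genes that could be tested in each queen. At 72 h 104 of 139 (74.8%) were, against 82.6% of all called genes. The 6 females and 6 males did not overlap in 61.3% of the 194 lncRNAs at 48 h and in 52.6% at 72 h, against 60.4% and 59.7% of all genes. The split at 72 h depended on the scaling. Of the called lncRNAs 63.0% were higher in females under TMM, 76.3% with total counts and 88.0% with the library total of the RPKM. Of all called genes 58.8%, 80.2% and 91.1% were. The lncRNA share was thus above that of all genes under TMM, and below it with total counts and with the library total of the RPKM. The median of all genes also shifted to 1.64 with total counts and 2.97 with the library total of the RPKM. At 48 h 58.8% of the called lncRNAs and 55.0% of all called genes were higher under TMM. With the library total of the RPKM the shares were 69.5% and 73.6%, and the median of all genes was 0.98.

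**Figure D3:**
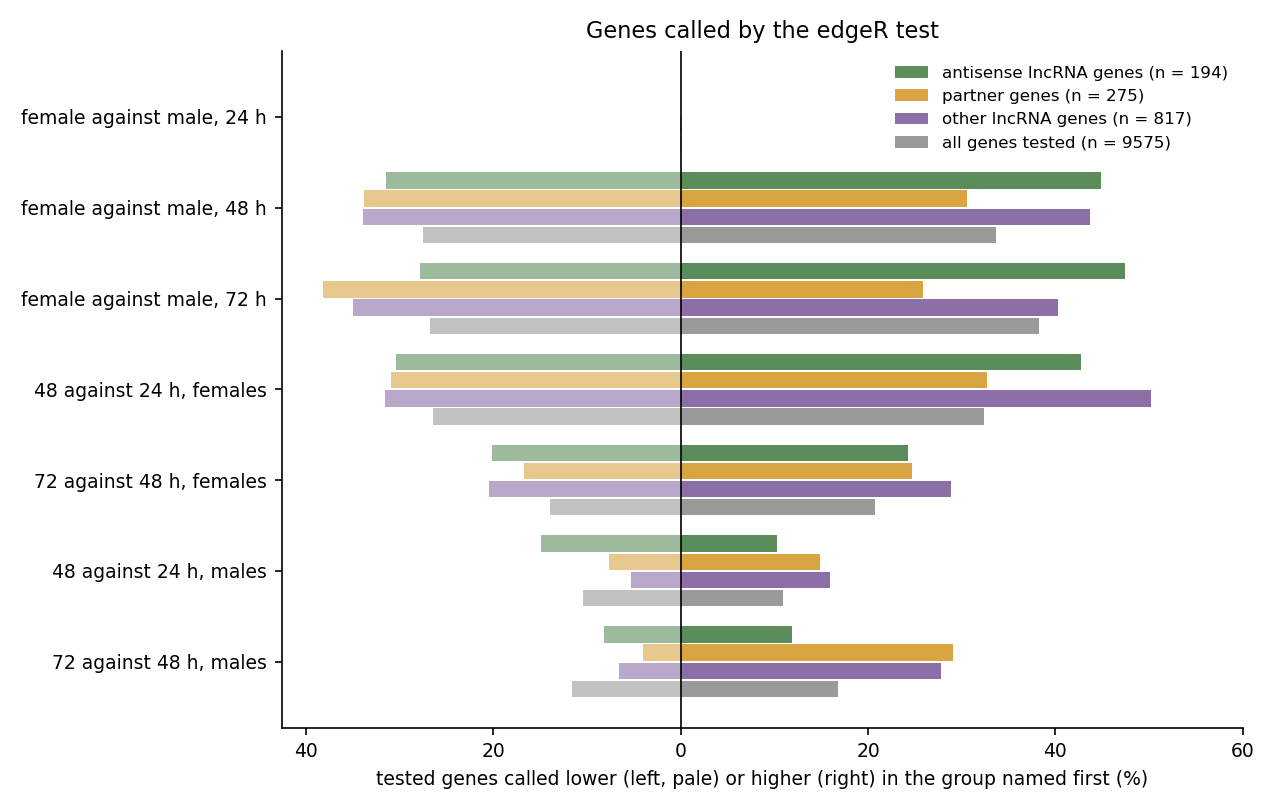
Share of tested genes called lower (left, pale bars) or higher (right) in the group named first in each of the 7 comparisons, for the 194 antisense lncRNAs, their 275 tested partners, 817 other lncRNA genes and all 9575 genes. At 48 and 72 h 44.8% and 47.4% of the antisense lncRNAs were called higher in females, against 33.7% and 38.2% of all genes under TMM scaling.

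The calls were spread over short and long overlaps. At 48 h 28 were higher and 28 lower in females among the 72 tested lncRNAs with under 10% overlap, 39 and 23 among the 84 with 10 to under 50%, and 20 and 10 among the 38 with 50% or more. At 72 h the numbers were 28 and 27, 43 and 21, and 21 and 6. From short to long overlap, 38.9%, 46.4% and 52.6% were thus higher and 38.9%, 27.4% and 26.3% lower at 48 h. At 72 h 38.9%, 51.2% and 55.3% were higher and 37.5%, 25% and 15.8% lower. By arrangement, 37 were higher and 28 lower at 48 h among 82 lncRNAs inside their partner, 25 and 21 among 65 in tail-to-tail pairs, and 23 and 10 among 41 in head-to-head pairs. At 72 h 34 were higher and 26 lower inside their partner, 35 and 13 in tail-to-tail pairs, and 20 and 13 in head-to-head pairs. In this order of arrangements, 45.1%, 38.5% and 56.1% were higher and 34.1%, 32.3% and 24.4% lower at 48 h. At 72 h 41.5%, 53.8% and 48.8% were higher and 31.7%, 20% and 31.7% lower. Of all genes 33.7% were higher and 27.6% lower at 48 h, and 38.2% and 26.8% at 72 h. For the other lncRNA genes the shares were 43.7% and 33.9% at 48 h, and 40.3% and 35.01% at 72 h. The groups of lncRNAs were not tested against each other or against these sets.

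The comparisons over time ask what changed within each sex. Between 24 and 48 h female embryos changed in most of the tested lncRNAs: 83 were higher and 59 lower at 48 h, against 32.4% and 26.5% of all genes (42.8% and 30.4% of the lncRNAs). Male embryos had 20 higher and 29 lower over the same interval, against 10.9% and 10.4% of all genes (10.3% and 14.9% of the lncRNAs). Between 48 and 72 h 47 were higher and 39 lower at 72 h in females (background 20.7% and 14%), and 23 were higher and 16 lower in males (background 16.7% and 11.6%). The median log2 fold change of the lncRNAs was 0.41 and 0.09 in females and 0.01 and 0.02 in males for the intervals to 48 and to 72 h. The difference between the sexes in these changes was tested as an interaction: from 24 to 48 h it was called in 138 lncRNAs (71.1%, against 55.8% of all genes), with a more positive change in females in 73 and a more negative one in 65, against 29.3% and 26.5% of all genes. From 48 to 72 h it was called in 74 (38.1%, against 43.8% of all genes), more positive in females in 34 and more negative in 40, against 23.3% and 20.5% of all genes. Of the other lncRNA genes 62.1% had a called interaction from 24 to 48 h and 41.4% from 48 to 72 h.

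In males the split of these calls went with the scaling. From 24 to 48 h 40.8% of the called lncRNAs were higher under TMM, 17.02% with total counts and 3.03% with the library total of the RPKM. Of all called genes 51.1%, 23.6% and 6.07% were. From 48 to 72 h the lncRNA values were 59.0%, 32.5% and 4.30%, with 77.3% under DESeq2 size factors and 72.7% under upper-quartile scaling. Those of all called genes were 59.0%, 33.4% and 6.27%, with 72.7% and 67.8%. In females 54.7% of the called lncRNAs were higher from 48 to 72 h under TMM, 66.7% with total counts and 71.3% with the library total of the RPKM. Of all called genes 59.7%, 73.5% and 77.7% were.

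Setting each lncRNA beside its partner asks whether the pair moved together. In 180 pairs both genes were tested. At 48 h both were called between the sexes in 97 pairs, in the same direction in 79 (42 higher and 37 lower in females) and in opposite directions in 18. At 72 h both were called in 89 pairs, in the same direction in 70 and in opposite directions in 19. Among 818 other opposite-strand pairs with overlapping exons, 293 were called for both genes at 48 h (197 in the same direction and 96 in opposite directions) and 332 at 72 h (229 and 103). The same direction thus made up 81.4% of the doubly called lncRNA and partner pairs at 48 h and 78.7% at 72 h, against 67.2% and 69% of the other pairs, a difference that was not tested. The lncRNA alone was called in 43 pairs at 48 h and 47 at 72 h, and the partner alone in 23 and 32. Across the 180 pairs the log2 fold changes of lncRNA and partner had a Pearson correlation of 0.53 at 48 h and 0.49 at 72 h (Spearman 0.50 and 0.50). With each pair entered in both orders, as the other pairs have no fixed order, the Pearson correlation was 0.49 at 48 h and 0.42 at 72 h, against 0.32 and 0.28 in the other pairs. The points share the 36 libraries, and pairs may share reads. By the share of the lncRNA under partner exons, the Pearson correlation at 48 h was 0.33 in the 64 pairs under 10%, 0.58 in the 79 pairs of 10 to under 50% and 0.78 in the 37 pairs of 50% or more. At 72 h it was 0.28, 0.65 and 0.48. Of the pairs under 10%, 29 moved the same way and 11 the opposite way at 48 h, against 19 and 3 in those of 50% or more. At 72 h the numbers were 23 and 10, against 11 and 4, and the groups by overlap were not tested against each other.

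**Figure D4:**
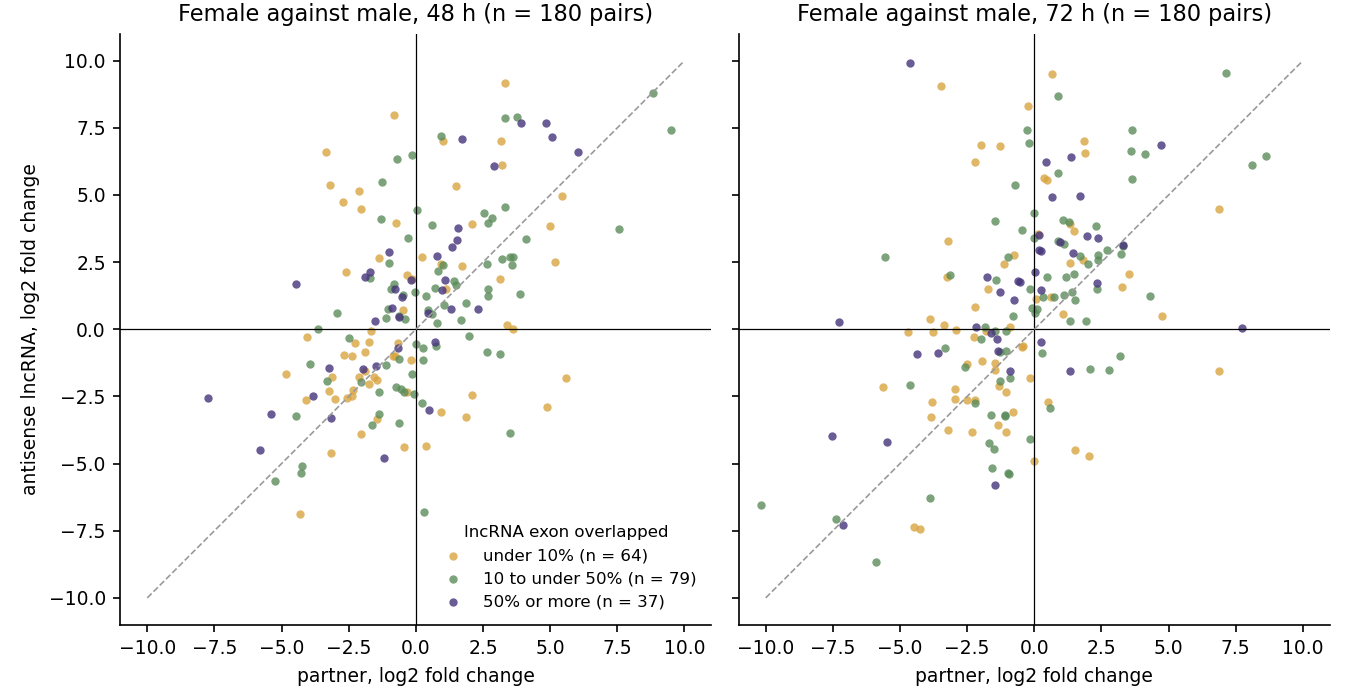
Fitted log2 fold change of the antisense lncRNA (y axis) against that of its partner (x axis) for females against males at 48 h (left) and 72 h (right), 180 pairs each, coloured by the share of the lncRNA's exon bases under partner exons. The dashed line marks equal change; same-direction calls were made in 79 pairs at 48 h and 70 at 72 h, and fold changes against a group without reads have no exact size.

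The ratio of lncRNA to partner within an embryo sets both genes against each other in the same library, so that the scaling of libraries cancels. Where either gene has few counts, the ratio still depends on the depth of the library through the pseudocount. It was tested with limma on log2 ratios (pseudocount 0.5) over 1014 pairs of genes with overlapping exons on opposite strands. In pairs other than those of an lncRNA and its partner, the order of the genes is not fixed. Higher and lower shares of the 1014 pairs therefore depend on that order and give no reference for the direction of the lncRNA ratios. Only the share called in either direction can be compared. For the 1014 pairs this share is the sum of the higher and lower shares given below. At 24 h the ratio was higher in females than in males in 2 of the 180 pairs and lower in 1, against 0.493% and 0.296% of the 1014 pairs. At 48 h it was called in 65% of the 180 pairs, higher in females in 70 and lower in 47. Of the 1014 pairs 34.2% and 31.1% were called higher and lower. At 72 h it was called in 61.7% of the 180 pairs, higher in females in 74 and lower in 37. Of the 1014 pairs 35.7% and 31.4% were called higher and lower. Over time in females it was higher at 48 than at 24 h in 67 pairs and lower in 47 (background 31.9% and 30.8%), and higher at 72 than at 48 h in 47 and lower in 41 (background 22.5% and 19.9%). In males the numbers were 27 higher and 33 lower to 48 h (background 15.4% and 16.6%), and 24 higher and 30 lower to 72 h (background 14.3% and 14.9%). Between the sexes at 48 and 72 h, the share of lncRNA pairs called in either direction lay below that of the 1014 pairs. At 24 h and in each comparison over time it lay above. These differences were not tested. A called ratio means that the lncRNA and its partner changed unequally; it does not say which of them changed.

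The lncRNAs described next were chosen by a rule, as those with the largest called changes in each comparison, the highest levels, the most abundant ones with a named partner, the largest ratio changes and the largest opposite changes, and they are ordered by what their partners do. Values are TMM-normalized counts scaled to library size (CPM), given as the range over 6 embryos with the median, and fold changes come from the edgeR fit of all 36 embryos. A value marked log2 is the log2 fold change of females over males or of the later over the earlier time, and for a ratio the difference of the log2 ratio.

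Partners that control transcription included caudal (cad), a homeobox factor that patterns the posterior of insect embryos. Its antisense lncRNA LOC102656426 has 4 exons on linkage group 1, 8938560 to 8943885, plus strand, lies head to head with cad (8931687 to 8941618, minus strand) and shares 416 bases, 12.7% of its exons, all of them coding bases of cad. At 24 h it stood at 1313 to 2246 CPM (median 1896) in females and 1441 to 2587 CPM (median 1576) in males. Females had 116 to 189 CPM (median 136) at 48 h and 0.832 to 6.37 CPM (median 1.59) at 72 h, against 1092 to 2174 CPM (median 1591) and 635 to 1146 CPM (median 999) in males. The sexes overlapped at 24 h, and the ranges were apart at both later times. The lncRNA was lower in females at 48 h (log2 fold change −3.49, SE 0.24, adjusted p = 8.4e-17) and at 72 h (log2 fold change −8.67, SE 0.32, adjusted p = 7.4e-26). Without the highest female of 72 h the value at 72 h was −9.21. cad itself averaged 816 ± 244, 321 ± 36.9 and 10.1 ± 4.89 CPM in females and 960.5 ± 107, 491 ± 142 and 607 ± 107 CPM in males at 24, 48 and 72 h (SD, n = 6 each). It was lower in females at 72 h by a log2 fold change of −5.91, and at 48 h its −0.61 did not reach the fold threshold. The lncRNA to cad ratio was lower in females (log2 difference −2.91, SE 0.19, adjusted p = 4.69e-18) at 48 h and −2.95 (SE 0.34, adjusted p = 3.02e-10) at 72 h on the log2 scale.

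Myb, a transcription factor of dividing cells, moved against its antisense lncRNA. LOC100577336 lies inside the Myb gene on linkage group 1, 12723737 to 12729730, minus strand, and 131 bases, 9.26% of its exons, lay under Myb exons. It was at 2.83 to 7.48 CPM (median 4.002) in females and 4.202 to 6.11 CPM (median 4.52) in males of 24 h. At 48 h it reached 22.6 to 68.9 CPM (median 45.5) in females, against 0.322 to 1.87 CPM (median 1.33) in males, and at 72 h 14.7 to 39.99 CPM (median 24.01) against 0 to 1.63 CPM (median 0). No female of 48 or 72 h was as low as any male of that age. It was higher in females at 48 h (log2 fold change 5.16, SE 0.36, adjusted p = 1.08e-16) and 72 h (log2 fold change 6.21, SE 0.63, adjusted p = 1.16e-11), whereas Myb was lower in females, by log2 fold changes of −2.12 (adjusted p = 3.95e-12) and −2.21 (adjusted p = 1.64e-12). All 6 males of 72 h lay below 3 counts per library (2.31 to 4.21 CPM) for this lncRNA, so that its 6.21 has no exact size. The lncRNA to Myb ratio changed (log2 difference 7.03, SE 0.41, adjusted p = 2.55e-19) at 48 h. Within females the lncRNA was higher at 48 than at 24 h (log2 3.29) and within males lower with log2 −1.9998 (adjusted p = 3.23e-14 and 4.37e-05). The reverse was seen for LOC102653875, inside a zinc finger protein 76-like gene and overlapping it by 318 bases, 20.8% of its exons. At 48 h it had 0.291 to 1.65 CPM (median 0.563) in females, against 6.45 to 15.3 CPM (median 10.8) in males, a log2 fold change of −3.87, while the partner averaged 38.1 ± 2.699 CPM in females and 3.26 ± 0.917 CPM in males and was higher in females (log2 3.52). Their ratio was lower in females (log2 difference −7.51, SE 0.54, adjusted p = 1.66e-16).

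Partners that bind RNA included the TRIM71-like gene LOC724752, whose relative TRIM71 is a ubiquitin ligase and RNA-binding protein of early mammalian embryos, and fusilli (fus), a splicing regulator of epithelia in flies. LOC102653819, with 2 exons on linkage group 14, 2046500 to 2047646, plus strand, lies inside LOC724752, and 622 bases, 57.7% of its exons, lay under its coding exons. It stood at 737 to 827 CPM (median 775) in females and 560.1 to 903 CPM (median 612) in males at 24 h. At 48 h it was at 3.97 to 10.001 CPM (median 5.23) in females and 134 to 248 CPM (median 164) in males. The decrease was called in females (log2 fold change −6.98, SE 0.24, adjusted p = 2.24e-26) and in males (log2 fold change −1.93, SE 0.19, adjusted p = 3.89e-11), and it was larger in females by an interaction of −5.05 (adjusted p = 4.7e-19). At 72 h females had 1.65 to 4.16 CPM (median 2.75) and males 71.6 to 201 CPM (median 167). The partner was also lower at 48 h in females (log2 −1.55), so that the ratio was lower (log2 difference −5.49, SE 0.36, adjusted p = 4.17e-18). LOC102655779 lies head to head with fus and shares 56 bases, 2.12% of its exons. At 48 h it had 9.01 to 13.3 CPM (median 12.03) in females and 52.8 to 77.04 CPM (median 58.02) in males (log2 fold change −2.43, SE 0.13, adjusted p = 1.57e-20), while fus averaged 76.9 ± 8.64 CPM in females and 18.1 ± 4.16 CPM in males and was higher in females (log2 2.095). At 72 h the lncRNA was still lower in females (log2 −1.81, adjusted p = 7.14e-16) under TMM, but the value was −0.57, short of the threshold, with total counts and 0.78 with the library total of the RPKM, and fus had −0.17, which did not pass the test.

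Several partners belong to signalling pathways. Wnt4 and Wnt5 are secreted ligands of Wnt receptors, and the nemo kinase (nmo) acts in Wnt signalling and tissue polarity in flies. LOC102656816 lies inside Wnt4 on linkage group 1, 12674838 to 12686195, minus strand, sharing 51 bases, 1.93% of its exons. It was at 41.3 to 76.4 CPM (median 53.6) in females and 37.02 to 57.1 CPM (median 48.7) in males of 24 h, at 4.804 to 6.76 CPM (median 5.86) and 37.7 to 72.9 CPM (median 60.5) at 48 h, and at 1.67 to 3.42 CPM (median 2.52) and 26.6 to 46.3 CPM (median 34.7) at 72 h. The sexes were apart at the later times (log2 −3.33 at 48 h, adjusted p = 2.5e-20, and −3.76 at 72 h, adjusted p = 9.36e-20). Wnt4 was also lower in females (log2 −1.46 and −3.22), with 56.9 to 78.6 CPM (median 66.5) in females and 536 to 983 CPM (median 572) in males at 72 h. The ratio was lower in females at 48 h (log2 difference −1.84, SE 0.25, adjusted p = 9.22e-09), and its −0.59 at 72 h did not pass the test. LOC102655293 lies head to head with Wnt5 and shares 84 bases, 8.59% of its exons. It was a low lncRNA, at 0.944 to 3.05 CPM (median 2.07) in females of 72 h and listed at 0 in all 6 males, whose depth would allow up to 2.31 to 4.21 CPM for a count of 0. Wnt5 averaged 6.29 ± 1.01 CPM in females and 25.5 ± 7.54 CPM in males of 72 h, and it was lower in females with log2 −2.001 (adjusted p = 5.67e-10).

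The lncRNA over nmo, LOC100576430, was higher in females at 48 h. It was at 60.8 to 85.9 CPM (median 63.4) in females and 17.8 to 43.5 CPM (median 29.4) in males of 48 h (log2 fold change 1.21, SE 0.17, adjusted p = 3.98e-08). At 72 h it had 22.2 to 55.4 CPM (median 35.3) in females and 55.2 to 115 CPM (median 63.1) in males, and its −0.93 missed the fold threshold, reached −1.02 without female 25 and −1.02 without male 17 of queen 2, and turned to 1.69 with the library total of the RPKM. nmo averaged 293 ± 74.9 CPM in females and 6019 ± 1429.5 CPM in males of 72 h and was lower in females (log2 −4.37), so that the ratio was higher in females (log2 difference 3.43, SE 0.197, adjusted p = 1.29e-19). Baboon (babo), a type I receptor of activin-like ligands, was at 170.3 to 207 CPM (median 177) in females and 6674 to 11153 CPM (median 8735) in males of 72 h, and was lower in females (log2 −5.55). Its antisense lncRNA LOC102654996, with 176 bases, 16.8% of its exons, under coding bases of babo, was higher in females at 72 h, with 9.98 to 28.7 CPM (median 23.4) in females and 0.986 to 9.502 CPM (median 2.56) in males (log2 fold change 2.68, SE 0.41, adjusted p = 2.16e-07). The ratio was higher in females (log2 difference 8.14, SE 0.403, adjusted p = 7.33e-22), and the value was 7.55 with a pseudocount of 2. In 36 embryos together this lncRNA had 1474 counts, 0.160 of the number that would fall on the shared bases of babo.

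Other partners are receptors and a kinase. LOC102656370 lies head to head with a gene for a high affinity nerve growth factor receptor-like product, LOC725720, on linkage group 1, 4493053 to 4504638, plus strand, and shares 192 bases, 41.7% of its exons. It was at 6.31 to 10.3 CPM (median 7.64) in females of 48 h and 7.61 to 19.95 CPM (median 12.5) in females of 72 h, and at 0 in all 12 males of these ages. It was thus at least 9.51-fold higher in females at 48 h and at least 4.11-fold higher at 72 h, taking 3 counts per library as the floor (adjusted p = 4.08e-13 and 1.4e-10). The receptor-like gene averaged 176 ± 60.02 and 91.3 ± 20.3 CPM in females and 0.254 ± 0.449 and 0.541 ± 0.644 CPM in males at 48 and 72 h. The counts of this lncRNA equalled 1.07 times those that would fall on the shared bases of the partner. LOC100576338, head to head with a prostaglandin E2 receptor EP4 subtype-like gene and sharing 292 bases, 28.8% of its exons, was at 0 in all 6 females of 24 h, at 16.9 to 31.7 CPM (median 24.6) at 48 h and at 67.7 to 106 CPM (median 74.1) at 72 h. It was at least 82.5-fold higher at 48 than at 24 h in females (adjusted p = 5.08e-22), while males had at most 0.322 CPM at 48 h. The partner was higher in females at 48 than at 24 h (log2 3.46), and the lncRNA had 18.9 times the counts that would fall on the shared bases. Protein kinase C delta (Pkcdelta), a kinase that answers to lipid second messengers, holds LOC102655524 inside its span, with 791 bases, 26.5% of its exons, under coding exons. This lncRNA was at 67.6 to 124 CPM (median 92.3) in females and 0 to 0.746 CPM (median 0.371) in males of 48 h (log2 fold change 7.85, SE 0.41, adjusted p = 1.28e-20), and at 28.8 to 57.4 CPM (median 49.04) and 0 to 12.2 CPM (median 1.195) at 72 h. All 6 males of 48 h lay below 3 counts per library (0.473 to 1.12 CPM) for this lncRNA, so that its 7.85 has no exact size. Its log2 fold change at 72 h was 4.31, and 5.59 without male 23 of queen 2. Pkcdelta was higher in females at 48 h (log2 3.31), and at 72 h its 0.004 did not pass the test.

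Among partners of excitable cells and cell contacts, paralytic (Para) encodes the voltage-gated sodium channel of insect neurons. Its lncRNA LOC100578608 lies inside Para on linkage group 9, 5070746 to 5073628, plus strand, and 739 bases, 33.1% of its exons, lay under coding exons. It was at 3.51 to 6.06 CPM (median 4.61) in females and 4.54 to 6.35 CPM (median 5.395) in males of 24 h. Females had 39.02 to 111 CPM (median 71.3) at 48 h and 16.3 to 44.3 CPM (median 25.9) at 72 h, against 3.22 to 7.36 CPM (median 4.23) and 3.08 to 6.79 CPM (median 4.57) in males. Females were higher without overlap at both times (log2 fold change 3.89, SE 0.25, adjusted p = 6.07e-18 at 48 h and 2.71 at 72 h), whereas Para differed (log2 0.597 and −0.98), both within the fold threshold. The ratio was higher in females (log2 difference 3.23, SE 0.26, adjusted p = 4.38e-15) at 48 h and 3.48 (SE 0.31, adjusted p = 2.63e-13) at 72 h. LOC102656407 lies inside the lachesin-like gene LOC410888, a relative of an immunoglobulin-type adhesion protein of flies, and shares 4 bases with its coding exons. It was the lncRNA with most counts. It was at 766 to 2055 CPM (median 1212) in females and 2948 to 14716 CPM (median 8461) in males of 72 h and was higher in males at 72 than at 48 h (log2 fold change 2.36, SE 0.25, adjusted p = 2.74e-10), while its partner was higher (log2 2.58) in the same interval. With the library total of the RPKM the value for the lncRNA was 0.89. At 48 h females and males differed with log2 −1.01 (adjusted p = 0.000183), a value at the fold threshold. It fell short of the threshold under the 4 other scalings (log2 −0.94 to −0.18), by DESeq2's Wald test (log2 −0.81), in queen 2 alone (log2 −0.99) and without any 1 of 7 embryos (log2 −0.998 to −0.888, being female 35 of queen 2 at 24 h and, at 48 h, males 4 and 8 of queen 1, females 18, 29 and 30 of queen 2 and male 21 of queen 2), and at 72 h the −2.699 was −0.03 with the library total of the RPKM.

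Big brain (bib), a membrane protein of the aquaporin family known in flies for its role in neural fate, holds LOC100578596, which has 11 exons and shares 18 bases, 0.34% of its exons. bib averaged 209 ± 163 CPM in females and 4.31 ± 2.46 CPM in males of 48 h, and 738 ± 91.9 and 6.83 ± 3.27 CPM at 72 h, and it was higher in females (log2 5.58 and 6.87). The lncRNA was lower in females, at 1.75 to 6.76 CPM (median 4.74) against 8.95 to 25.1 CPM (median 14.8) at 48 h (log2 −1.799, adjusted p = 3.04e-07) and 1.42 to 5.24 CPM (median 3.29) against 6.23 to 19.7 CPM (median 8.02) at 72 h (log2 −1.53, adjusted p = 0.000181). The ratio was lower in females (log2 difference −8.43, SE 0.53, adjusted p = 3.43e-18) at 72 h. Sarcoglycan delta (Scgdelta), part of the dystrophin complex of muscle, is met tail to tail by LOC100578436, with 138 bases, 1.75% of its exons. This lncRNA was at 40.4 to 52.5 CPM (median 45.1) in females and 48.1 to 53.8 CPM (median 50.8) in males of 24 h and differed later, with 1.26 to 3.06 CPM (median 2.68) in females and 22.7 to 72.8 CPM (median 47.5) in males at 48 h and 4.95 to 14.05 CPM (median 10.5) and 89.1 to 168 CPM (median 118) at 72 h (log2 −4.34 and −3.56). Scgdelta itself stayed under 10 CPM in every embryo.

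Partners that are enzymes included T3dh, an alcohol dehydrogenase. The lncRNA LOC102654070, on linkage group 10, 9218704 to 9221260, minus strand, shares 529 bases, 22.2% of its exons, with T3dh. It was at 560.2 to 1779 CPM (median 1021) in females and 644 to 1782 CPM (median 1427) in males of 24 h, at 289 to 514 CPM (median 401) and 650.3 to 3136 CPM (median 2254) at 48 h, and at 7.08 to 124 CPM (median 18.6) and 966 to 1792 CPM (median 1483) at 72 h. The sexes overlapped at 24 h and were apart at 48 and 72 h (log2 fold change −2.34, SE 0.397, adjusted p = 1.24e-06 and log2 fold change −5.396, SE 0.46, adjusted p = 8.24e-14), and without female 15 of queen 1 the value at 72 h was −6.25. T3dh was far lower, at 6.18 ± 1.97 CPM in females and 12.1 ± 5.12 CPM in males of 72 h, and its log2 fold change of −0.93 did not pass the test. The lncRNA held 246 times the counts that would fall on the bases shared with T3dh. LOC102654586 meets ebony, the enzyme that joins beta-alanine to dopamine in cuticle pigmentation, tail to tail with 125 bases, 17.7% of its exons. It was lower in males at 72 than at 48 h, at 3.56 to 7.35 CPM (median 6.53) against 10.8 to 20.6 CPM (median 15.6) (log2 fold change −1.36, SE 0.27, adjusted p = 4.43e-05). ebony was higher in females at 48 h (log2 2.65), when the lncRNA had −0.83 and missed the fold threshold, and their ratio was lower in females (log2 difference −3.43, SE 0.39, adjusted p = 1.5e-10). LOC102653949 shares 10 bases with midway (mdy), which makes triglycerides in flies. It was at 0 to 1.35 CPM (median 0.706) in females of 48 h and at 0 in all 6 males, so that the female mean of 0.713 CPM lay below the 0.823 CPM of 3 counts in these males, while mdy averaged 3.16 ± 1.01 CPM in females and 29.98 ± 17.5 CPM in males and was lower in females with log2 −3.19 (adjusted p = 8.48e-11).

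Several partners carry solutes across membranes. LOC102656549 meets a proton-coupled amino acid transporter 4-like gene, LOC552193, tail to tail and shares 959 bases, 20.9% of its exons, none of them coding. It was at 30.6 to 57.5 CPM (median 39.1) in females and 58.7 to 79.8 CPM (median 68.2) in males of 24 h, at 6.08 to 15.01 CPM (median 9.42) and 97.96 to 460.3 CPM (median 379.7) at 48 h, and at 1.298 to 5.21 CPM (median 3.83) and 238 to 421 CPM (median 351) at 72 h. From 24 to 48 h it fell in females (log2 fold change −2.08, SE 0.25, adjusted p = 7.31e-10) and rose in males (log2 fold change 2.28, SE 0.23, adjusted p = 1.31e-10). The transporter gene had log2 fold changes of −2.52 in females and 1.34 in males in this interval, and at 72 h it averaged 2.05 ± 0.623 CPM in females and 2409 ± 493 CPM in males. Their ratio at that age was higher in females (log2 difference 3.59, SE 0.28, adjusted p = 4.87e-15). LOC102655066, inside a sodium-coupled monocarboxylate transporter 1-like gene with 373 bases, 38.1% of its exons, was at 0.546 to 1.67 CPM (median 1.401) in females and 12.3 to 44.9 CPM (median 20.1) in males of 72 h and was higher in males at 72 than at 48 h (log2 fold change 2.496, SE 0.34, adjusted p = 8.03e-08). The partner had −0.16 between the sexes at 72 h, which did not pass the test, and the ratio was lower in females (log2 difference −3.91, SE 0.37, adjusted p = 1.56e-12). LOC102654627 lies inside a gene annotated as the ortholog of organic anion transporting polypeptide 33Eb, with 1207 bases, 77.1% of its exons. At 72 h it was at 0 to 0.118 CPM (median 0) in females and 3.85 to 14.2 CPM (median 7.58) in males (log2 fold change −7.28, SE 0.603, adjusted p = 3.04e-14), and the partner at 0.118 to 0.462 CPM (median 0.272) and 34.3 to 48.9 CPM (median 40.6) (log2 −7.13), so that the ratio, at 0.35, did not pass the test. All females of 72 h lay below 3 counts per library (0.277 to 0.374 CPM) for this lncRNA, so that its fold change has no exact size. This lncRNA held 0.452 of the counts that would fall on the shared bases.

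Csat, a transporter of nucleotide sugars into the Golgi, meets LOC102656856 tail to tail with 406 bases, 48.4% of its exons. The lncRNA was at 7.08 to 13.3 CPM (median 8.72) in females and 9.502 to 36.5 CPM (median 28.4) in males of 72 h (log2 fold change −1.51, SE 0.23, adjusted p = 1.83e-07), whereas Csat averaged 15.8 ± 2.97 CPM in females and 1.97 ± 3.295 CPM in males and was higher in females (log2 2.797). Their ratio was lower in females (log2 difference −4.99, SE 0.56, adjusted p = 1.18e-10). The log2 fold change of the lncRNA was −0.28 with total counts and turned to 1.05 with the library total of the RPKM. At 48 h its −1.09 passed the thresholds, but not under 3 of the other scalings (log2 −0.89 to −0.33), by DESeq2's Wald test (log2 −0.89), in queen 2 alone (log2 −0.96) nor without female 7 of queen 1 (log2 −0.98), male 6 of queen 1 (log2 −0.96) or male 29 of queen 2 (log2 −0.98).

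Further partners were a C-type lectin and a protease gene. C-type lectins bind sugars, and some recognize microbes in insects. LOC102656325 meets CTL6 tail to tail on linkage group 11, 2841341 to 2847085, minus strand, and 434 bases, 75.3% of its exons, lay under CTL6 coding exons. It stood at 0.787 to 1.9998 CPM (median 1.18) in females and 0.515 to 1.796 CPM (median 0.834) in males of 24 h and at 0.25997 to 3.56 CPM (median 1.49) and 0 to 1.26 CPM (median 0.319) at 48 h. At 72 h it was at 9.61 to 22.2 CPM (median 18.3) in females and at 0 in all 6 males, at least 5.39-fold higher in females (adjusted p = 6.67e-10). CTL6 ran the other way, with 9.44 to 17.9 CPM (median 11.6) in females and 200.3 to 429 CPM (median 334) in males of 72 h, and was lower in females (log2 −4.62). The ratio was higher in females (log2 difference 5.896, SE 0.44, adjusted p = 4.35e-16) at 48 h. At 72 h, with no lncRNA count in any male, the size of its difference depended on the pseudocount, with 9.62 at a pseudocount of 0.5 and 7.63 at 2 (adjusted p = 9.85e-25 at 0.5). LOC102654856 lies head to head with a furin-like protease 2-like gene and shares 56 bases, 5.83% of its exons. It was at 0 in all 24 h embryos and all males. Females had 1.03 to 3.77 CPM (median 1.28) at 48 h and 4.62 to 12.98 CPM (median 10.4) at 72 h, at least 2.07-fold and at least 3.02-fold higher than males (adjusted p = 6.74e-06 and 8.02e-07). The protease gene was lower in females (log2 −3.34 and −3.48).

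**Figure D5:**
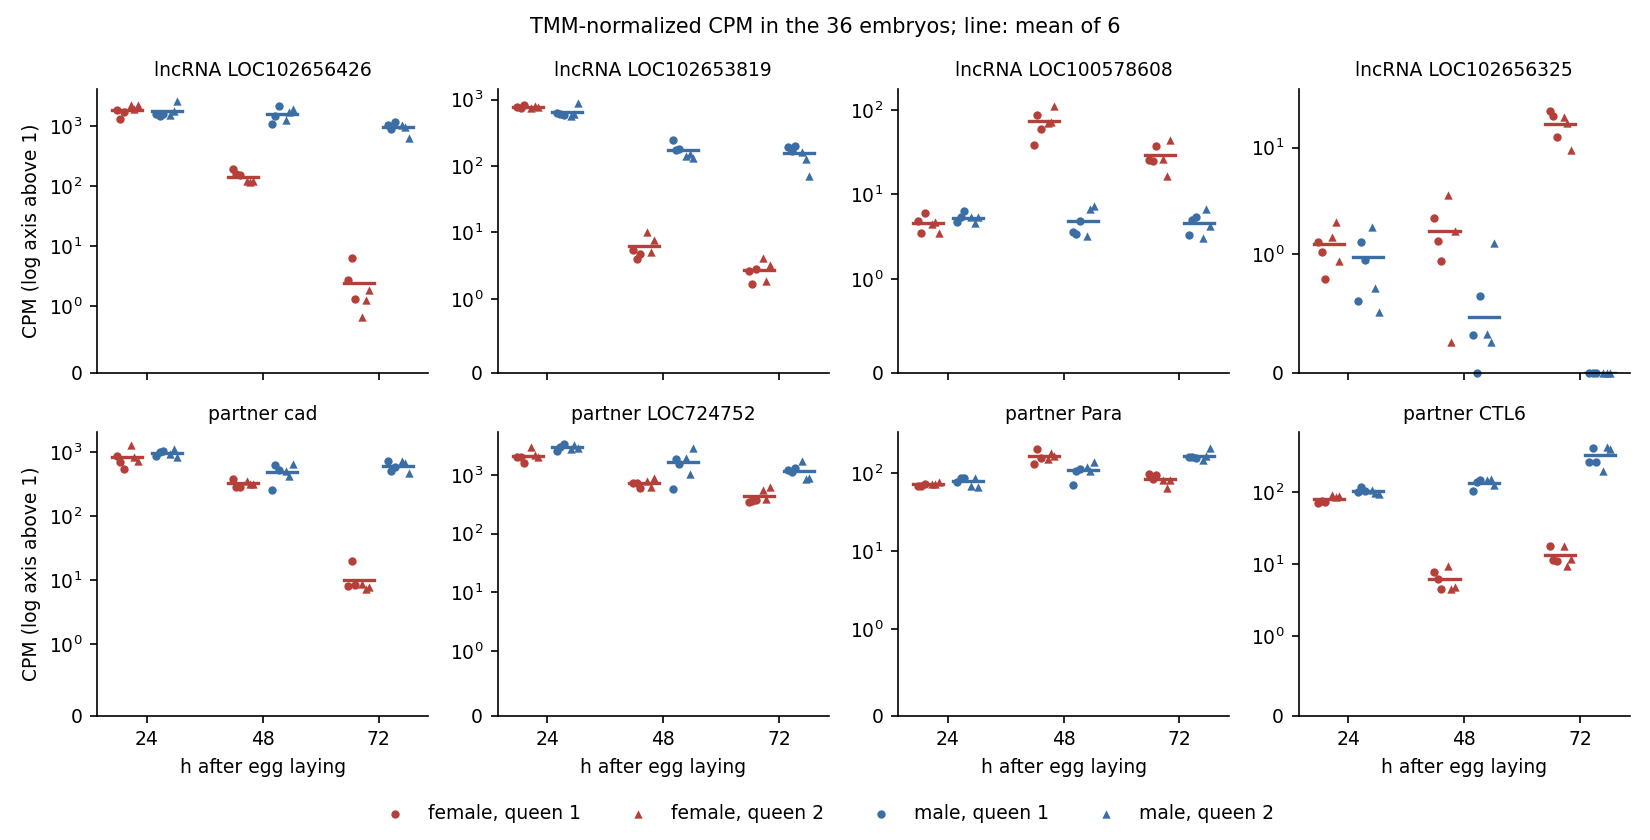
TMM-normalized CPM (axis linear below 1 and logarithmic above) of 4 antisense lncRNAs and their partners in each of 36 embryos, females left of males at 24, 48 and 72 h; circles are queen 1, triangles queen 2, and lines the mean of 6. LOC102656426 was at 0.832 to 6.37 CPM in females and 635 to 1146 CPM in males of 72 h, and LOC102656325 was at 9.61 to 22.2 CPM in females and 0 in males of 72 h while CTL6 was lower in females.

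Other partners are uncharacterized. LOC102656409, on linkage group 9, 7147555 to 7151091, plus strand, meets LOC726750 tail to tail with 176 bases, 5.67% of its exons. It was at 0 to 0.1498 CPM (median 0.0394) in females and 0 to 0.239 CPM (median 0.124) in males of 24 h, at 158 to 319 CPM (median 279) and 0 to 0.789 CPM (median 0.453) at 48 h, and at 55.6 to 136 CPM (median 118) and 2.31 to 7.02 CPM (median 5.33) at 72 h. It rose in females from 24 to 48 h (log2 fold change 11.64, SE 0.39, adjusted p = 9.91e-27) and was higher in females at 48 h (log2 fold change 9.18, SE 0.36, adjusted p = 1.26e-24) and 72 h (log2 fold change 4.49, SE 0.32, adjusted p = 3.82e-16). All females of 24 h lay below 3 counts per library (0.225 to 0.405 CPM), so that the size of this rise is not exact. The partner of this lncRNA stayed at or under 6.85 CPM in every embryo. LOC102654259 meets LOC100578989 tail to tail on linkage group 4, 2791897 to 2796830, plus strand, with 521 bases, 14.7% of its exons. It was at 72.05 to 86.003 CPM (median 82.1) in females and 76.7 to 87.8 CPM (median 81.1) in males of 24 h, at 1.43 to 2.65 CPM (median 1.83) and 78.6 to 111 CPM (median 105) at 48 h, and at 0.462 to 1.67 CPM (median 0.781) and 87.8 to 147 CPM (median 124) at 72 h. It fell in females from 24 to 48 h (log2 fold change −5.36, SE 0.18, adjusted p = 1.02e-26), where the change in males was 0.27 (adjusted p = 0.0892). The partner followed it, lower in females (log2 −5.26) at 48 h and −7.396 at 72 h, against −5.65 and −7.08 for the lncRNA, and no ratio between the sexes passed the test.

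LOC102653813 lies head to head with LOC409936, their 5′ ends 151 bases apart, and shares 77 bases, 16.6% of its exons. It peaked at 48 h in females, with 20.6 to 26.6 CPM (median 23.1), 78.8 to 154 CPM (median 138) and 1.25 to 4.72 CPM (median 1.59) at 24, 48 and 72 h, and males had 24.7 to 29.7 CPM (median 26.7), 39.9 to 66.8 CPM (median 50.6) and 15.5 to 22.5 CPM (median 20.2). It was higher in females at 48 h (log2 fold change 1.27, SE 0.17, adjusted p = 1.04e-08) and lower in females at 72 h (log2 fold change −3.18, SE 0.26, adjusted p = 1.38e-14), a value that was −0.60 with the library total of the RPKM. From 48 to 72 h it fell in females (log2 −5.86) and in males (log2 −1.41) on the log2 scale. Its partner was lower in females at 72 h (log2 −1.597). LOC102656522, inside LOC724652 with 40 shared bases, rose in males from 24 to 48 h (log2 fold change 4.26, SE 0.301, adjusted p = 1.03e-14), with 29.3 to 139.6 CPM (median 98.9) at 48 h, against 2.87 to 7.46 CPM (median 4.92) at 24 h. It also rose in females (log2 fold change 2.66, SE 0.29, adjusted p = 8.46e-11), with 17.5 to 29.5 CPM (median 28.3) at 48 h, against 3.41 to 4.72 CPM (median 4.38) at 24 h. LOC102656385, tail to tail with LOC408964 and sharing 45 bases, fell in males in the same interval (log2 fold change −1.67, SE 0.27, adjusted p = 2.65e-06), with 3.36 to 14.5 CPM (median 6.43) against 17.6 to 27.6 CPM (median 21.97), and its −0.97 in queen 2 alone missed the fold threshold. In females it fell too (log2 fold change −3.74, SE 0.299, adjusted p = 1.09e-14), with 1.31 to 2.702 CPM (median 1.81) at 48 h, against 17.4 to 31.3 CPM (median 25.7) at 24 h, and the female change was larger (interaction −2.07, adjusted p = 1.88e-05). LOC100576602, which encloses LOC100576537, and LOC102655526, tail to tail with LOC408280, rose in females from 48 to 72 h. LOC100576602 had 13.4 to 39.96 CPM (median 19.2) at 72 h, against 0.146 to 2.88 CPM (median 0.742) at 48 h (log2 fold change 4.26, SE 0.405, adjusted p = 6.12e-12), and LOC102655526 had 5.43 to 13.4 CPM (median 10.01), against 0 to 1.15 CPM (median 0.669) (log2 fold change 3.88, SE 0.42, adjusted p = 5.89e-10). At 72 h LOC102655526 was at 0 in all males and at least 3.02-fold higher in females. Neither partner passed the filter.

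Unequal changes of a pair were also found in LOC102654417 and LOC102653796. LOC102654417 lies inside LOC725508 and was at 8.45 to 15.6 CPM (median 10.8) in females and 0 to 0.967 CPM (median 0.368) in males of 48 h (log2 4.74), while the partner averaged 6.22 ± 1.697 and 41.3 ± 10.6 CPM and was lower in females (log2 −2.71). All 6 males of 48 h lay at or below 3 counts per library (0.473 to 1.12 CPM) for this lncRNA, so that its 4.74 has no exact size. The ratio was higher in females (log2 difference 7.35, SE 0.43, adjusted p = 2.55e-19), and the value was 6.33 with a pseudocount of 2. LOC102653796 shares 16 bases with the end of LOC410261, annotated as an echinoderm microtubule-associated protein-like gene, and was at 5.59 to 12.9 CPM (median 7.62) in females and 23.98 to 81.999 CPM (median 66.1) in males of 48 h (log2 −2.88), while the partner averaged 9.31 ± 2.16 and 0.311 ± 0.289 CPM and was higher in females (log2 4.88). The ratio was lower in females (log2 difference −7.52, SE 0.49, adjusted p = 6.63e-18), and −6.36 with a pseudocount of 2. At 72 h LOC102653704, head to head with LOC726150, was at 0 to 1.62 CPM (median 0.349) in females and 7.35 to 21.1 CPM (median 11.2) in males (log2 −4.71), with the ratio lower in females (log2 difference −7.198, SE 0.78, adjusted p = 3.98e-11), and −5.57 with a pseudocount of 2. LOC102653734, head to head with Reps, a gene of endocytic trafficking in mammals, was at 0 to 0.3003 CPM (median 0.0524) in females and 2.84 to 17.5 CPM (median 12.8) in males of 48 h (log2 fold change −6.81, SE 0.56, adjusted p = 1.79e-14), while Reps had 0.304 (adjusted p = 0.436). All females of 48 h lay below 3 counts per library (0.315 to 0.450 CPM) for this lncRNA, so that its fold change has no exact size. LOC100578101, tail to tail with DIP2, had 34.1 to 65.1 CPM (median 47.5) in females and 30.8 to 107 CPM (median 71.6) in males of 48 h, and its log2 fold changes of −0.55 at 48 h and −0.82 at 72 h both missed the fold threshold, the second turning to 1.77 with the library total of the RPKM.

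Replicates here are embryos of the same queen or of 2 queens, so that the p-values measure the spread between embryos of these queens only. The differences that involve males of 72 h rest on libraries with 1195774 to 2008560 counts, where 3 counts correspond to 2.31 to 4.21 CPM.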

How the data were processed

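Single whole embryos were sequenced after amplification of their cDNA. According to the study's methods, the authors aligned reads with TopHat2 to Amel_4.5, kept unambiguous alignments and deposited raw read counts and RPKM per gene; the counting tool and its strand setting are not given in the sources used here. The deposited counts are whole numbers without normalization, and the deposited RPKM are scaled by the authors to merged exon length and to a library total larger than the counted reads. All columns of both tables matched a sample, so that 0 columns were not used. No pair of embryos of a group was the same library, as their counts differed beyond sampling noise in each of the 36 pairs. Male 6 of queen 1 at 48 h lay far from males 4 and 8 of its group. The chi-square of counts per degree of freedom was 142 and 102, against 13.3 between males 4 and 8. Male 6 also had the highest depth of the males of 48 h, 7572141 counts.

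Genes were classified from the deposited annotation of Amel_4.5. Counts were fitted in edgeR 4.0.16 (R 4.3.3) by the quasi-likelihood test with TMM factors, filterByExpr (minimum count 10, minimum total 15), 6 sex and time groups and queen, with Benjamini-Hochberg adjustment over 9575 genes. Pair ratios were fitted in limma 3.58.1 over 1014 opposite-strand pairs with precision weights. DESeq2 1.42.0, other scalings, no filter, each queen alone, other thresholds and pseudocounts and leaving out each embryo were tried, and the tests were checked on simulated data. Named lncRNAs were, per comparison, the 2 highest and 2 lowest called changes with the same sign in each queen, no overlap of the embryos and at least 5 CPM in the higher group; the 5 highest mean RPKM; up to 10 with a named partner; and the most extreme ratios and opposite changes of the sexes. The members, lists and rules were chosen with earlier results of these data known. Embryo numbers only name embryos: queen 1 males of 48 and 72 h share 2 numbers, whose deviations had a correlation of 0.0183. No genome of this build was used, and no sequence is printed.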

Additional observations from a re-analysis of the deposited data

Results flagged for a closer look

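In 19 of 192 groups of 6 embryos 1 embryo stood apart from the other 5 by Dixon's criterion, which chance meets in 5% of groups; 4 of the 19 were in males of 72 h. Male 8 of queen 2 at 24 h had 2587 CPM of LOC102656426, 903 CPM of LOC102653819 and 2.06 CPM of LOC102654627, and the antisense lncRNAs held 0.857% of its counts. Female 15 of queen 1 at 72 h had 6.37 CPM of LOC102656426 and 124 CPM of LOC102654070. Female 25 of queen 2 at 72 h had 106 CPM of LOC100576338, 8.87 CPM of LOC102654417 and 5.64 CPM of LOC102653796, and female 22 had 1.62 CPM of LOC102653704. Among queen 2 females of 48 h, embryo 30 had 17.5 CPM of LOC102656522 and 3.77 CPM of LOC102654856, and embryo 29 had 12.9 CPM of LOC102653796. Among queen 2 males of 72 h, embryo 24 had 44.9 CPM of LOC102655066 and 19.7 CPM of LOC100578596, and embryo 23 had 115 CPM of LOC100576430. LOC102655779 was at 52.6 CPM in male 9 of queen 2 at 24 h and 77.4 CPM in male 11 of queen 1 at 72 h. Female 15 of queen 1 at 48 h had the highest depth of its group, 7944906 counts.

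The change over time differed between the sexes in 138 lncRNAs from 24 to 48 h and in 74 from 48 to 72 h, by the interaction test of edgeR. As female change minus male change on the log2 scale, the interval from 24 to 48 h gave 9.75 for LOC102656409, 8.86 for LOC100576338, −5.05 for LOC102653819, −5.63 for LOC102654259, −1.60 for LOC102656522, −4.36 for LOC102656549 and −2.07 for LOC102656385. The interval from 48 to 72 h gave 2.67 for LOC100576602, −5.18 for LOC102656426, −4.44 for LOC102653813, −2.18 for LOC102655066, −1.69 for LOC102656407 and 1.15 for LOC102654586. Values against groups without reads or below 3 counts per library, as for LOC100576338 and LOC102656409, have no exact size.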

How the results depend on the processing

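Most values kept their direction and their side of the threshold. Under other settings, the counts that moved were mainly those in males and at 72 h. On leaving out 1 embryo 41 counts moved, all of them small counts of the sex comparison at 24 h. Of the medians and percentages called, 51 moved under other settings. With the library total of the RPKM, 147 lncRNAs were called higher and 20 lower in females at 72 h, 25 were lower in females from 48 to 72 h, 2 were higher and 64 lower in males to 48 h, 4 were higher and 89 lower in males to 72 h, and the interactions gave 43 lower to 48 h and 105 higher and 13 lower to 72 h. With the same total, 7543 of all 9575 tested genes were higher and 740 lower in females at 72 h. In males 238 of all genes were higher and 3683 lower to 48 h, and 407 were higher and 6085 lower to 72 h. The shift under this scaling was thus not particular to the lncRNAs. Under this scaling 4 lncRNAs reversed between the sexes at 72 h. Their log2 fold changes were 1.77 for LOC100578101, 0.78 for LOC102655779, 1.69 for LOC100576430 and 1.05 for LOC102656856. With total counts 8 were higher in males to 48 h, 13 were higher and 27 lower in males to 72 h, and 56 had a higher interaction to 72 h. Of all 9575 tested genes, 546 were higher and 1763 lower in males to 48 h with total counts. To 72 h 1138 were higher and 2270 lower. In males to 72 h, 36 were higher and 8 lower by DESeq2's Wald test, 37 were higher without the filter, and 10 were lower under DESeq2 size factors. Of all genes 719 were lower under DESeq2 size factors, against 1112 under TMM. Queen 1 alone gave 19 lower in males to 48 h and 8 to 72 h; queen 2 alone gave 15 higher and 7 lower in males to 72 h and 43 higher interactions to 48 h. At an unadjusted p under 0.01, 1 lncRNA was higher and 1 lower in females at 24 h. The ratio at 24 h was higher in 0 pairs in queen 2 alone or without weights, and lower in 2 in queen 1 alone and in 0 in queen 2 alone, without weights or with a pseudocount of 2; leaving out 1 embryo gave 0 to 3 higher and 0 to 1 lower. In males the ratio was higher to 48 h in 15 pairs in queen 2 alone, higher to 72 h in 6 in queen 1 alone and in 37 with a pseudocount of 2, and lower to 72 h in 13 in queen 2 alone. Members called lower at 24 h numbered 0 to 1 without 1 embryo. With the shared embryo number as a replicate block in queen 1 males, 5 were higher and 0 lower from 48 to 72 h, and the same 4 embryos without the block, added after seeing the data, gave 0 and 0; the numbers only name embryos. For the interactions, single queens, DESeq2's Wald test, the fit without the filter, unadjusted p and the ratios, no share over all genes or pairs stands beside these counts. They therefore do not show changes particular to the lncRNAs. The causes were not tested. Depth limits males of 72 h most.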
